A study of Mus musculus with 2 samples.

Results

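The genes of the mitochondrial respiratory chain and ATP synthase were examined in cultured mouse brain pericytes (PCs), the mural cells of brain capillaries, by single-cell RNA sequencing at passage 5 (PC5) and at passage 20 (PC20). Members were taken by gene symbol. The rule took symbols that begin with *mt-Nd*, *mt-Co*, *mt-Cytb* or *mt-Atp*, those that begin with *Nduf* plus a, b, c, s or v and a number, those that begin with *Uqcr* or *Atp5*, *Cox4* to *Cox8* with their isoforms, and *Sdha* to *Sdhd*. It found 97 of the 31053 genes listed in the files, of which 13 lie in the mitochondrial genome and 84 in the nuclear genome. By complex, 42 belong to complex I, 4 to complex II, 9 to complex III, 23 to complex IV and 19 to complex V. *Ndufa4* and *Ndufa4l2* were placed with complex IV, where their proteins are now known to sit.

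Each culture came from the pooled brains of 6 female wild type C57BL/6N mice aged 6 to 8 weeks, with no other genotype or treatment, and each was sequenced as 1 library. By the study's methods each culture had its own isolation, whereas the design text given to the repository names only 1, so the effect of passage cannot be told apart from that of isolation. With 1 library per passage no test between passages was possible and no p-value is given. After keeping cells with more than 1000 genes and under 20% of unique molecular identifiers (UMIs, each tagging 1 captured RNA molecule) from mitochondrial genes, PC5 held 9950 cells with a median of 21700 UMIs and PC20 held 4749 cells with a median of 33424 UMIs. The 13 mitochondrial members are all the mitochondrial genes in the files, so the 20% limit was set on members themselves. No doublets were removed, and 20 cell barcodes occurred in both libraries.

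The label pericyte was only partly borne out by marker RNA. *Pdgfrb*, a receptor gene that the study used as a PC marker, was at 44.6 CPM (UMIs scaled to a library total of 1000000) in PC5 and at 5.43 CPM in PC20. The list of 7 PC markers summed to 54.0 and 8.53 CPM, most of it *Pdgfrb*. *Cspg4* was at 5.55 and 0.0994 CPM, whereas *Anpep* was lower in PC5, at 1.93 and 3.00 CPM. *Rgs5*, *Kcnj8* and *Vtn* had 405, 13 and 20 UMIs in PC5 and 0 UMIs in PC20. *Abcc9* had 1 UMI in each library. Lists of markers of other cell types ranged from 0.520 CPM for 3 microglial markers to 1302 CPM for 4 fibroblast markers in PC5, and from 0.0157 to 229 CPM in PC20, the latter for 3 astrocyte markers. That astrocyte sum was nearly all *Slc4a4*, with *Aldh1l1* at 0.0262 CPM and *Aqp4* at 0.00523 CPM in PC20. The fibroblast list summed to 101 CPM in PC20, and most of it was *Col3a1* in both, at 1158 CPM (PC5) and 101 CPM (PC20). *Pdgfra* was at 88.6 and 0.131 CPM and *Dcn* at 51.3 and 0.167 CPM. The 3 smooth muscle markers summed to 283 and 49.5 CPM, with *Tagln* at 219 and 0.230 CPM and *Acta2* at 62.8 and 49.2 CPM. The 3 endothelial markers summed to 169 and 0.178 CPM. In PC5 nearly all of this was *Cdh5*, at 168 CPM, with *Pecam1* at 0.542 CPM and *Cldn5* at 0.0628 CPM. The part of these differences in the results that follow was not tested.

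The respiratory chain passes electrons from NADH (complex I) and succinate (complex II) through ubiquinone to complex III, through cytochrome c to complex IV and on to oxygen, and ATP synthase (complex V) uses the proton gradient so formed. Mitochondrial DNA encodes the core of the membrane arm of complex I, cytochrome b of complex III, the catalytic subunits of complex IV and the *a* and A6L subunits of complex V, whereas complex II and all other subunits are encoded in the nucleus and imported. Nuclear subunit genes are known targets of nuclear respiratory factor 1 (NRF1) and of GA-binding protein (GABP), and some complex IV subunits have isoforms restricted to muscle, testis or lung or induced by hypoxia.

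Promoters of the nuclear members were read because these factors are the ones the family is known for. Windows from 250 bases before to 50 bases after the RefSeq start, on GRCm38.p6, were found for 67 of the 84 nuclear members. The NRF1 letters GCATGCGC, searched on both strands, occurred in 10 of them (14.9%) and in 3.05% of the 27025 genes with a window. The GABP letters CCGGAAG, neither motif holding the other, occurred in 16 of them (23.9%) and in 9.93% of genes. Of members at least 2-fold higher in PC5, 3 of 8 with a window held the NRF1 letters. Of those at least 2-fold higher in PC20 2 of 8 held them, and of the other 51 with a window 5 did. For the GABP letters these counts were 4 of 8, 2 of 8 and 10 of 51. Both motifs thus occurred in genes of both directions. The 5 members past 2-fold that held the NRF1 letters are shown 5′ to 3′ on the strand of the gene, with these letters on either strand in capitals. They are given as 30 bases around the letters, except that *Atp5l* runs from the letters and *Ndufa6* from 100 bases before the RefSeq start up to the annotated gene:
*Atp5k*, chr5:108434430-108434459, minus strand: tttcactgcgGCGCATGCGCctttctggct
*Atp5l*, chr9:44920743-44920982, minus strand: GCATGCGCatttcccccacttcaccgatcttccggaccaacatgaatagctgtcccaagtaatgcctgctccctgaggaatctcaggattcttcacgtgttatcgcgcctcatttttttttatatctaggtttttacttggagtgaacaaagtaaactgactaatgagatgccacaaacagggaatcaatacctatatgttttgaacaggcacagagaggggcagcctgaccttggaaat
*Uqcr11*, chr10:80406807-80406836, minus strand: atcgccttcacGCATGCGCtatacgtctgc
*Ndufa6*, chr15:82354323-82354391, minus strand: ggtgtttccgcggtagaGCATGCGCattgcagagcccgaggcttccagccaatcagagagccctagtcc
*Sdhb*, chr4:140961206-140961235, plus strand: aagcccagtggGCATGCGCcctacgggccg
The first 3 were higher in PC5 and the last 2 were higher in PC20, as given with their complexes.

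Levels are given as CPM from UMIs summed over the kept cells of a library. The method counts 3′ ends, so a level does not scale with transcript length. Differences are log2 ratios of PC5 CPM over PC20 CPM, positive where PC5 was higher, with exact 95% intervals that cover counting error only and not the spread between cultures. A gene was counted as called when the ratio was at least 2-fold and its mean over both libraries at least 5 CPM, a level that 92 members and 9387 of all genes reached. The 5 members that did not reach it were *Cox4i2*, *Cox7b2*, *Cox8b*, *Cox8c* and a second gene ID of *Atp5o*.

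In sum the family was close to even between passages, while its parts lay apart. All members together took 4.54% of UMIs in PC5 and 3.86% in PC20. Of the 92 members, 14 (15.2%) were called higher in PC5, against 17.9% of all genes, 10 (10.9%) were called higher in PC20, against 17.3% of all genes, and 36 (39.1%) lay within 0.5 of 0 on the log2 scale, against 38.3%. Both shares of called members were thus under those of all genes, and 46 members were higher in each passage, with a median log2 ratio of -0.01 beside 0.01 for all genes.

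The genomes differed in how their members were placed. The 13 mitochondrially encoded members summed to 24030 CPM in PC5 against 19975 CPM in PC20, for a log2 ratio of 0.27 (0.26 to 0.27), and their median log2 ratio was 0.62, with 11 higher in PC5 and 2 higher in PC20. The nuclear encoded members summed to 21323 and 18609 CPM, a log2 ratio of 0.20 (0.19 to 0.20), but only 35 of the 79 that passed were higher in PC5 and their median was -0.18. The sum and the median of the nuclear members thus differed in sign. The sum of the ribosomal protein genes, 31.3% and 30.6% of UMIs, had a log2 ratio of 0.03.

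**Figure D1:**
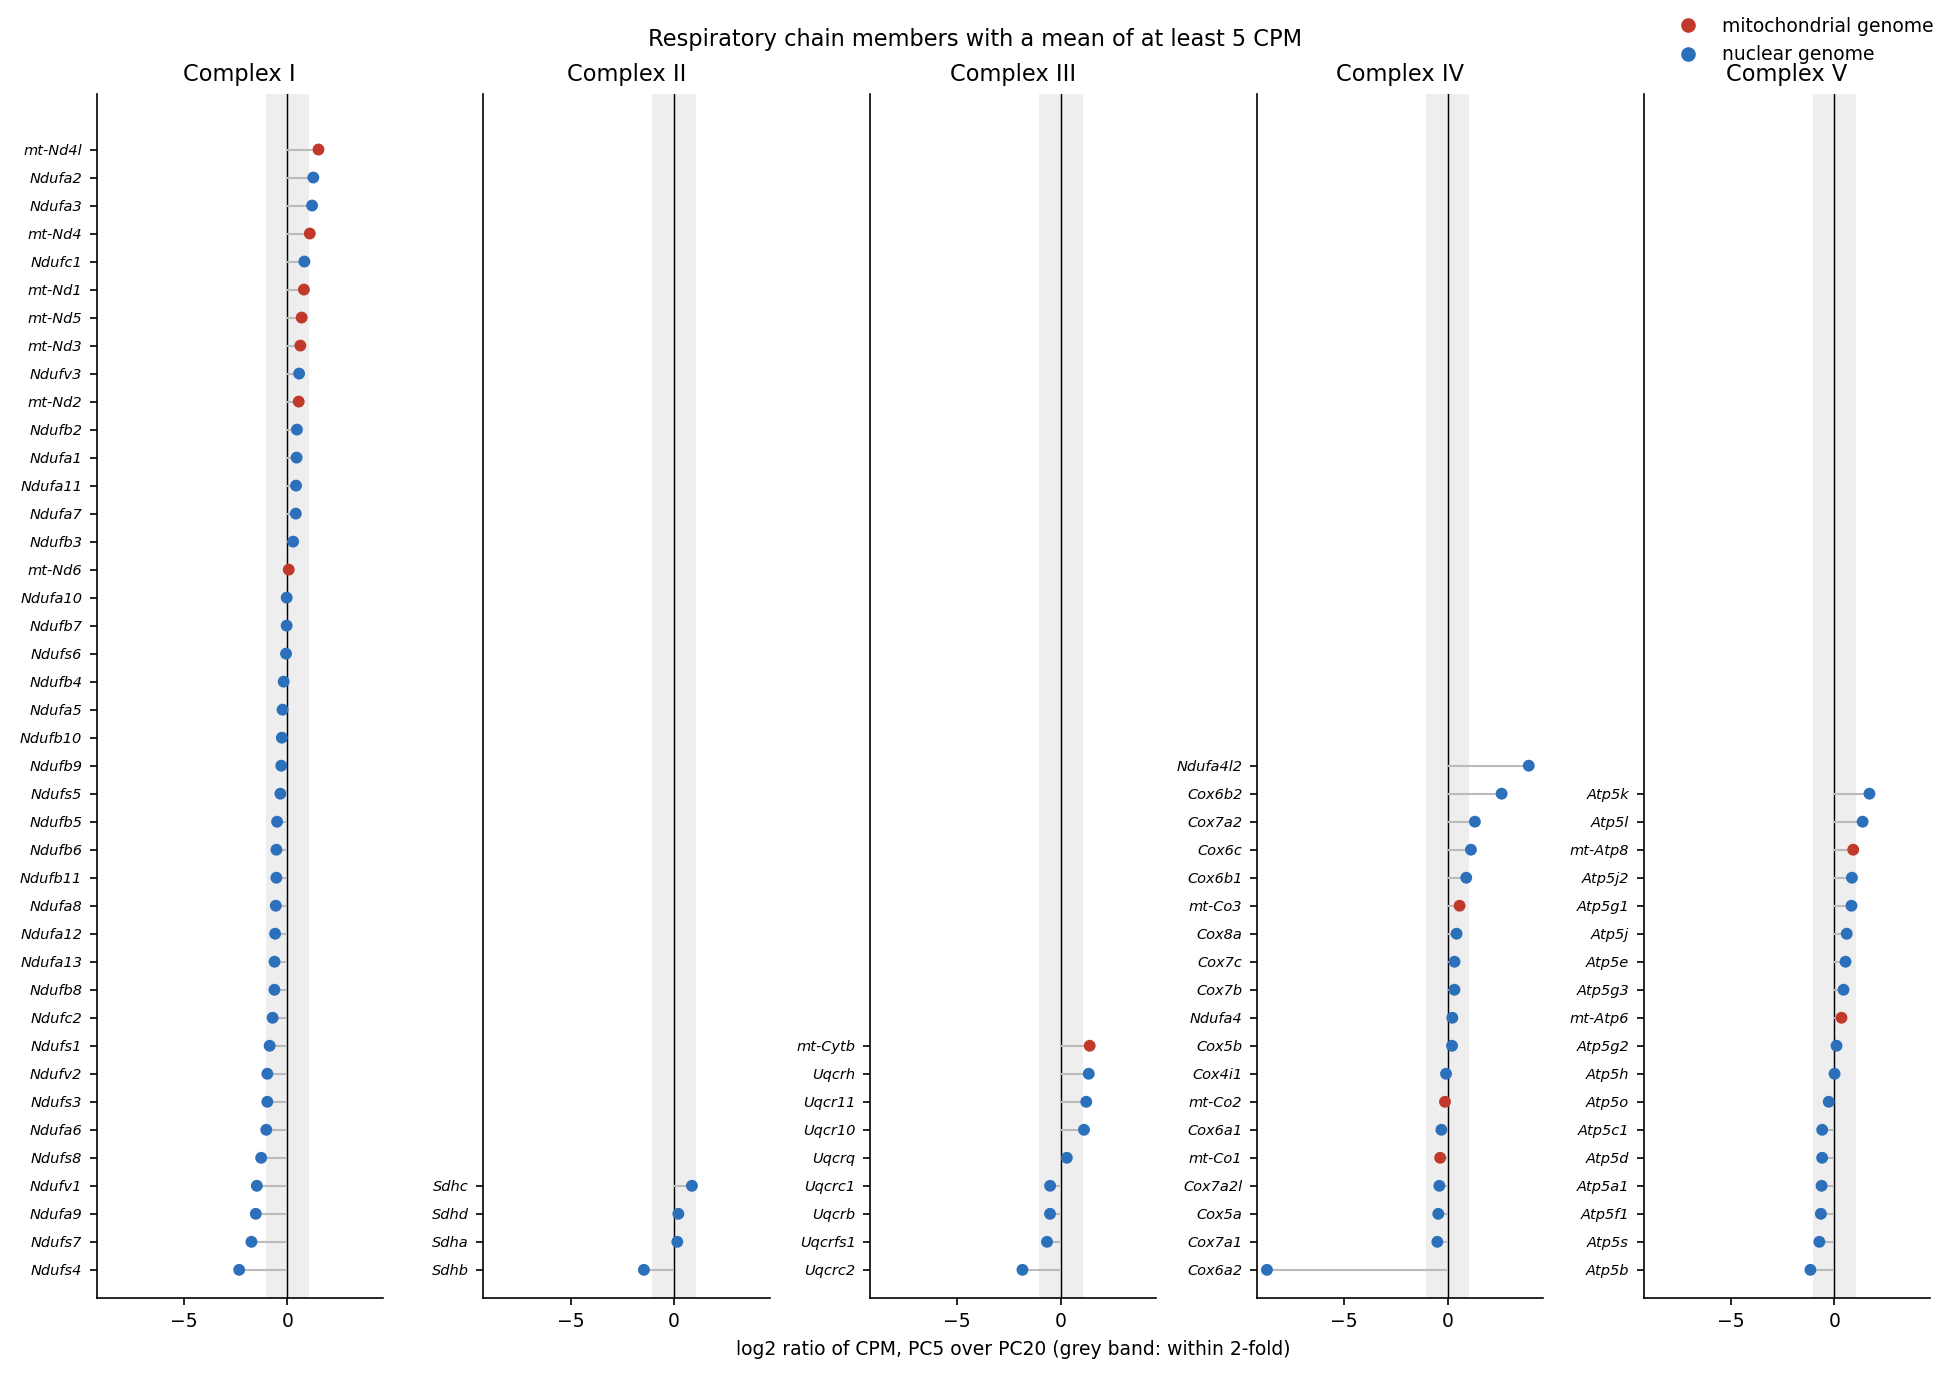
Log2 ratio of CPM, PC5 over PC20 (horizontal axis), for 91 of the 92 members with a mean of at least 5 CPM, by complex, with red points for mitochondrially and blue points for nuclear encoded genes. Points outside the grey band differ at least 2-fold: 14 lie to its right and 10 to its left, and *Cox6a2* stands farthest out at -8.72.

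The core subunits of complex I were split, with arm and genome falling together. The matrix arm, which binds NADH and carries the flavin and the iron-sulfur clusters, has 7 nuclear encoded core subunits, and all 7 were lower in PC5, with a summed level of 334 CPM in PC5 and 706 CPM in PC20 and a summed log2 ratio of -1.08 (-1.09 to -1.07). The membrane arm, which pumps protons, has 7 mitochondrially encoded core subunits, and all 7 were higher in PC5, at 5583 and 3109 CPM with a log2 ratio of 0.84 (0.84 to 0.85). The summed levels of the core subunits of the arms thus lay in opposite directions. In the core, the part of the arm cannot be told apart from that of the genome.

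Of the matrix arm, *Ndufs7*, an iron-sulfur subunit next to the ubiquinone site, was at 52.7 CPM (PC5) and 176 CPM (PC20) (log2 ratio -1.74, -1.77 to -1.71). *Ndufv1*, the subunit that binds NADH and the flavin, was at 21.9 and 60.8 CPM (-1.48, -1.52 to -1.43). *Ndufs8*, which holds a pair of iron-sulfur clusters, was at 49.9 and 120 CPM (-1.27, -1.30 to -1.23). These 3 were past 2-fold. *Ndufs3* and *Ndufv2* lay just inside it at -0.97 each, and *Ndufs1*, the largest subunit, was at 20.7 and 37.6 CPM (-0.86).

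In the membrane arm, *mt-Nd4l* differed most, at 666 CPM (PC5) and 236 CPM (PC20) (log2 ratio 1.498, 1.48 to 1.51), followed by *mt-Nd4* at 1607 and 761 CPM (1.08, 1.07 to 1.09). Their coding sequences overlap by 7 bases on the same strand and they share an RNA, so they are not independent counts. *mt-Nd1*, *mt-Nd5*, *mt-Nd3* and *mt-Nd2* lay between 0.80 and 0.54. *mt-Nd6*, the only protein gene on the other strand, was near even at 122 and 117 CPM (0.06, 0.04 to 0.09).

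The 28 accessory subunits of complex I, which surround the core, summed to 4760 CPM in PC5 and 4942 CPM in PC20 and had 9 members higher in PC5 and 19 higher in PC20. *Ndufs4*, a matrix-arm subunit needed for a stable complex (chr13:114287795-114388258), was at 50.4 and 253 CPM (log2 ratio -2.33, -2.36 to -2.30), the lowest ratio in complex I. *Ndufa9*, which sits at the junction of the arms, was at 13.05 and 37.6 CPM (-1.53, -1.59 to -1.46). *Ndufa6* was at 128 and 259 CPM (-1.02), only just past 2-fold. Called in the other direction were *Ndufa2*, with 631 and 265 CPM (1.25, 1.23 to 1.26) the most abundant nuclear member of complex I in PC5 but not in PC20, and *Ndufa3*, a small subunit of the membrane arm, with 225 and 98.6 CPM (1.19, 1.16 to 1.21).

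Complex II, succinate dehydrogenase, has no mitochondrially encoded subunit and summed to 308 CPM in PC5 and 319 CPM in PC20 (log2 ratio -0.05, -0.07 to -0.04). Only its iron-sulfur subunit *Sdhb* was past 2-fold, at 44.1 and 121 CPM (-1.46, -1.49 to -1.43). The flavoprotein *Sdha*, at 91.6 and 82.5 CPM, and the membrane anchor *Sdhd*, at 63.9 and 55.5 CPM, were near even (0.15 and 0.20). The other anchor, *Sdhc*, was higher in PC5 at 108 and 59.9 CPM (0.86, 0.82 to 0.89).

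Complex III repeated the opposite placement of nuclear core and mitochondrially encoded subunits seen in complex I, but its other subunits did not follow those of complex I. Its core proteins and its iron-sulfur protein were all lower in PC5: *Uqcrc2* was at 33.7 CPM (PC5) and 122 CPM (PC20) (log2 ratio -1.86, -1.89 to -1.82), *Uqcrfs1*, the Rieske iron-sulfur protein, at 84.2 and 134 CPM (-0.67), and *Uqcrc1* at 52.9 and 75.8 CPM (-0.52). Cytochrome b, from *mt-Cytb*, was at 1967 and 752 CPM (1.39, 1.38 to 1.40). Of 5 small subunits 4 were higher in PC5, led by the hinge protein *Uqcrh* at 526 and 207 CPM (1.34, 1.33 to 1.36), *Uqcr11* at 524 and 225 CPM (1.22, 1.21 to 1.24) and *Uqcr10* at 578 and 267 CPM (1.11, 1.10 to 1.13). *Uqcrq*, at 598 and 490 CPM, was closer to even (0.29). *Uqcrb*, which binds near the ubiquinone site, was the exception at 206 and 296 CPM (-0.53).

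In complex IV, *mt-Co1* and *mt-Co2* were the 2 mitochondrial members that were lower in PC5, whereas the third catalytic subunit, *mt-Co3*, was higher. *mt-Co1*, which holds the heme and copper centre that reduces oxygen, was the most abundant member, at 4703 CPM (PC5) and 6045 CPM (PC20) (log2 ratio -0.36, -0.37 to -0.36). *mt-Co2*, which takes electrons from cytochrome c, was at 4002 and 4372 CPM (-0.13, -0.13 to -0.12). *mt-Co3* was at 3358 and 2254 CPM (0.58, 0.57 to 0.58). The 11 nuclear structural subunits that most tissues use summed to 6688 and 5007 CPM (0.42, 0.41 to 0.42), and 8 of them were higher in PC5. *Cox7a2*, at 643 and 259 CPM (1.31, 1.30 to 1.33), and *Cox6c*, at 920 and 423 CPM (1.12, 1.11 to 1.13), were past 2-fold. *Cox6b1* lay just under it at 538 and 289 CPM (0.90), *Cox8a* was the most abundant nuclear member of the complex at 1337 and 992 CPM (0.43), *Cox7c* and *Cox7b* were both at 0.33, and *Cox4i1*, the main form of subunit 4, was near even at 571 and 603 CPM (-0.08). *Cox6a1* was at 144 and 178 CPM (-0.30) and *Cox7a2l*, which joins complex III with complex IV in supercomplexes, at 214 and 283 CPM (-0.40).

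The isoforms of complex IV restricted to a tissue or condition held the widest differences of the whole family. *Cox6a2*, the form of heart and skeletal muscle (chr7:128205435-128206387), had 14 UMIs in PC5 and 5046 in PC20, or 0.0628 and 26.4 CPM (log2 ratio -8.72, -9.59 to -7.97). It made up 0.0435% (0.0238 to 0.0729) of the UMIs of *Cox6a1* and *Cox6a2* in PC5 and 12.9% (12.6 to 13.3) in PC20. After each cell was thinned to the same number of UMIs, a *Cox6a2* UMI was seen in 0.0678% of cells at passage 5 and 18.8% at passage 20, against 0.131% and 37.3% unthinned. *Cox7a1*, the other muscle form, did not share this gap: it was at 5.16 and 7.29 CPM (-0.50, -0.61 to -0.38).

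The other isoforms lay the opposite way. *Ndufa4l2*, a form known as a hypoxia-inducible factor (HIF) target and a marker of brain PCs (chr10:127514967-127517154), was at 33.7 CPM (PC5) and 2.23 CPM (PC20) (log2 ratio 3.91, 3.77 to 4.06), or 6.86% (6.71 to 7.01) and 0.568% (0.516 to 0.625) of the UMIs of *Ndufa4* and *Ndufa4l2*. *Cox6b2*, the testis form of subunit 6b (chr7:4751792-4753094), was at 44.3 and 7.28 CPM (2.60, 2.52 to 2.69), 7.60% and 2.46% of *Cox6b1* and *Cox6b2*. *Cox4i2*, the lung and hypoxia form of subunit 4 (chr2:152754173-152765037), was low in both, with 502 and 16 UMIs or 2.25 and 0.0837 CPM (4.75, 4.03 to 5.57). Thinned to equal depth, 22.6% of PC5 and 1.52% of PC20 cells held an *Ndufa4l2* UMI, 29.0% and 4.49% a *Cox6b2* UMI and 2.09% and 0.179% a *Cox4i2* UMI. No cell type known to lack these genes was told apart in the cultures, so the share that free RNA gives was not measured. *Cox7b2* had 3 and 0 UMIs, *Cox8b* had 1 and 0, and *Cox8c* was not seen in either library.

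A list of 10 known HIF targets was read beside these isoforms, since both *Ndufa4l2* and *Cox4i2* respond to hypoxia. All 10 were higher in PC20 and 9 (90%) were called, against 17.3% of all genes. The list was chosen with earlier results of these data known, so this share is a description only. Among them were the carbonic anhydrase gene *Car9* at 0.664 CPM (PC5) and 414 CPM (PC20) (log2 ratio -9.29), *Ero1l* at 144 and 2639 CPM (-4.19), *Ndrg1* at 21.5 and 284 CPM (-3.73) and *Slc2a1*, a glucose transporter, at 22.3 and 125 CPM (-2.48). *Ankrd37*, *Egln3*, *Bnip3*, *P4ha1* and *Pdk1* lay between -1.95 and -1.20. The gene not called was *Vegfa*, at 175 and 205 CPM (-0.23). *Ndufa4l2* and *Cox4i2* were therefore placed opposite to the list between passages. Within PC5 they lay with it: in the 2385 cells in the top 25% for HIF target UMIs at equal depth *Ndufa4l2* was at 67.0 CPM and *Cox4i2* at 4.08 CPM, against 16.3 and 1.20 CPM in the 2731 cells at or under the 25th percentile. Within PC20 *Ndufa4l2* was at 2.80 and 1.65 CPM in those groups. The summed nuclear members were lower in the top group in both libraries, at 19799 against 22306 CPM in PC5 and 17890 against 19431 CPM in PC20, and the mitochondrial members were higher, at 25495 against 22448 CPM and 20543 against 17110 CPM. The top groups also differed in other RNA. *Malat1*, an RNA that stays in the nucleus, was at 6695 against 5336 CPM in PC5 and 15060 against 9726 CPM in PC20. Ribosomal protein genes took 28.8% against 32.9% of UMIs in PC5 and 28.9% against 32.8% in PC20. In PC20 *Ero1l* gave 2639 of the 4934 CPM of the list. The part of HIF activity, RNA quality or cell integrity in these differences was not tested.

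Complex V divided by position as well. Of the 5 subunits of the F1 head, which makes ATP in the matrix, 4 were lower in PC5. The catalytic beta subunit *Atp5b* was at 255 CPM (PC5) and 569 CPM (PC20) (log2 ratio -1.16, -1.17 to -1.14), the alpha subunit *Atp5a1* at 201 and 309 CPM (-0.62), and *Atp5c1* and *Atp5d* of the central stalk were both at -0.59. The exception was the small epsilon subunit *Atp5e* at 874 and 603 CPM (0.54). The 3 small membrane subunits that hold the dimer together were all higher in PC5, *Atp5k* at 289 and 89.4 CPM (1.69, 1.67 to 1.72), *Atp5l* at 791 and 308 CPM (1.36, 1.35 to 1.37) and *Atp5j2* at 421 and 234 CPM (0.85). Together these small subunits were at 1500 and 631 CPM (1.25, 1.24 to 1.26) and the F1 head was at 1846 and 2254 CPM (-0.29, -0.29 to -0.28).

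The c-ring, the rotor of ATP synthase, is built of an identical protein from 3 genes that differ in their import signals. All 3 were higher in PC5: *Atp5g1* at 571 and 323 CPM (0.82), *Atp5g3* at 206 and 152 CPM (0.44) and *Atp5g2*, the most abundant nuclear member of the complex, at 1083 and 1008 CPM (0.10). *Atp5g1* was 30.7% (30.6 to 30.8) of c-ring UMIs in PC5 and 21.8% (21.6 to 21.9) in PC20, and *Atp5g2* was 58.2% and 68.0%. The peripheral stalk was even in sum, at 1116 and 1108 CPM (0.01, 0.00 to 0.02). The mitochondrially encoded *mt-Atp6* was at 4252 and 3354 CPM (0.34, 0.34 to 0.35) and *mt-Atp8* at 166 and 88.7 CPM (0.91, 0.88 to 0.93), from reading frames that overlap by 43 bases of a shared RNA. The *Atp5o* symbol stands for a pair of overlapping gene IDs in the files, of which 1 had no UMI in either library.

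The mitochondrially encoded members were also read in gene order. The heavy-strand promoter region lies before the ribosomal RNA genes and *mt-Nd1*, and the 12 genes on that strand are made from a long common precursor RNA that is cut into mRNAs. Over these 12 genes the rank correlation of the log2 ratio with gene order was 0.580. The order was not even, since *mt-Nd1* and *mt-Nd2*, which come first, were higher in PC5 (0.80 and 0.54), *mt-Co1* (chrM:5328-6872), which follows them, had the lowest ratio, and *mt-Cytb* (chrM:14145-15288), which comes last, had the second highest. These genes share precursor RNAs and libraries, so the correlation is a description only. *mt-Co1* made up 19.6% of mitochondrial UMIs in PC5 and 30.3% in PC20, while *mt-Cytb* made up 8.18% and 3.76%.

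**Figure D2:**
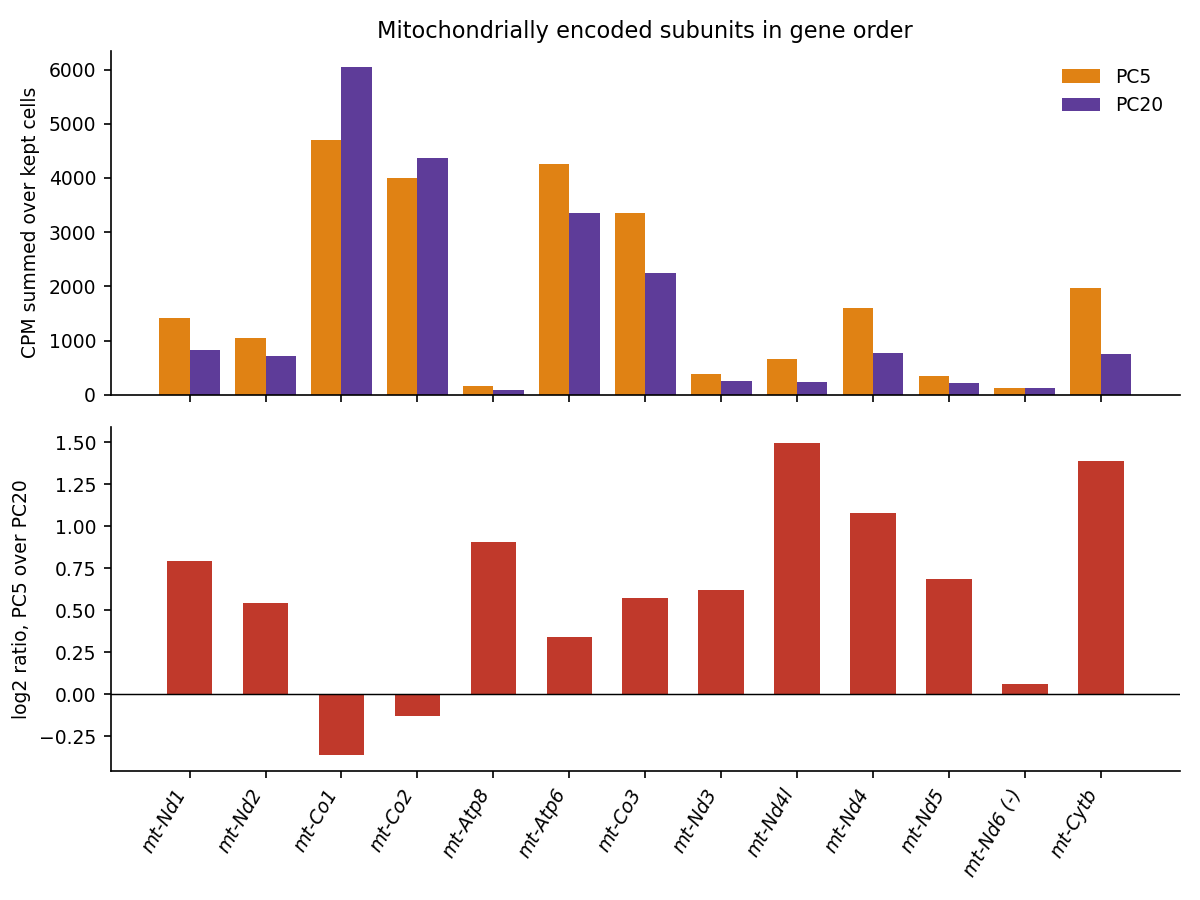
CPM of the 13 mitochondrially encoded members in PC5 (orange) and PC20 (purple), upper panel, and their log2 ratio, PC5 over PC20, lower panel, in gene order from left to right, with (-) marking the gene on the other strand. *mt-Co1* and *mt-Co2* are the bars under 0 (-0.36 and -0.13), and *mt-Nd4l* (1.498) and *mt-Cytb* (1.39) are the highest.

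The direction of the nuclear members varied with transcript length, though not evenly over its range. Length was taken as the median over a gene's protein-coding transcripts in GENCODE M21, and all 79 nuclear members had a value. This median counts every annotated transcript alike, so it need not be the length of the RNA in these cells and can misplace a gene. *Ndufs1*, the largest subunit of complex I, had a value of 651 bases and *Uqcrc1* 533, against 2413 for the accessory subunit *Ndufb2*. Of the 29 members of up to 600 bases 18 were higher in PC5 (median log2 ratio 0.40). Of the 20 members of 600 to 800 bases 10 were higher in PC5, with a median of -0.02. Of the 12 members of 800 to 1000 bases 2 were higher in PC5, with a median of -0.59, and of the 13 members of 1000 to 1500 bases 2 were higher in PC5, with a median of -0.65. The 5 members over 1500 bases by this measure went against this order, with 3 higher in PC5 and a median of 0.15. The 3 were *Atp5g1* (0.82), *Ndufb2* (0.46) and *Sdha* (0.15), while *Atp5a1* (-0.62) and *Atp5b* (-1.16) were lower in PC5. In other genes the medians in these 5 ranges were 0.04, -0.11, -0.25, -0.29 and 0.10. The rank correlation of length with log2 ratio was -0.45 over the 79 nuclear members and 0.15 over 9096 other genes, ribosomal protein genes left out of the latter. The 7 core subunits of the matrix arm had a median length of 977 bases and the 28 accessory subunits of complex I one of 627 bases, so role and length cannot be told apart in these members. The part of length in the ratios was not tested.

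**Figure D3:**
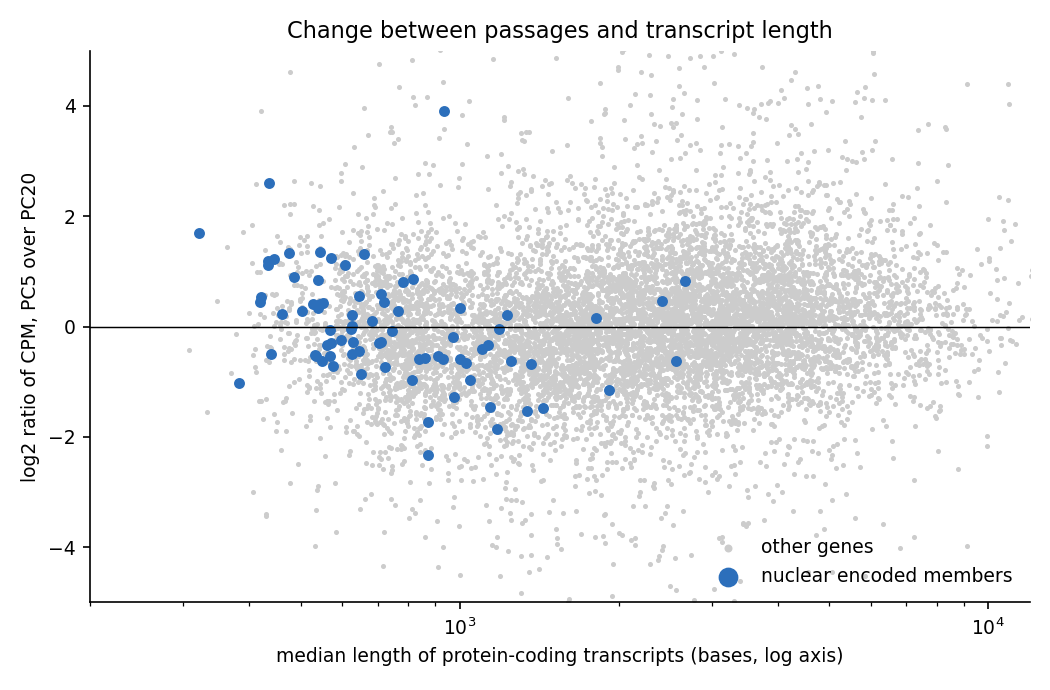
Log2 ratio of CPM, PC5 over PC20, against median length of protein-coding transcripts (bases, log axis) for the 79 nuclear encoded members (blue) and 9096 other genes (grey), with the vertical axis ending at 5 in both directions, which leaves out 1 member (*Cox6a2*) and 262 other genes, and the horizontal axis leaving out 27 other genes. Most of the shortest members lie above 0 and most between 800 and 1500 bases lie under it.

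Cells varied widely in the share of UMIs from either genome. The median cell held 2.60% mitochondrially encoded UMIs in PC5 and 2.02% in PC20, with the middle 50% of cells between 1.76 and 3.25% and between 1.34 and 2.68%. For nuclear members the medians were 2.06% and 1.85%, with the middle 50% between 1.76 and 2.48% and between 1.65 and 2.07%. The passages overlapped in both measures. Across cells the shares of the genomes were inversely ranked, with a Spearman correlation of -0.49 in 9950 PC5 cells and -0.12 in 4749 PC20 cells. In cells with at least 0.5% mitochondrial UMIs it was -0.36 in PC5 and -0.03 in PC20. Both shares are parts of the same total in each cell, and cells of a library are not replicates.

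**Figure D4:**
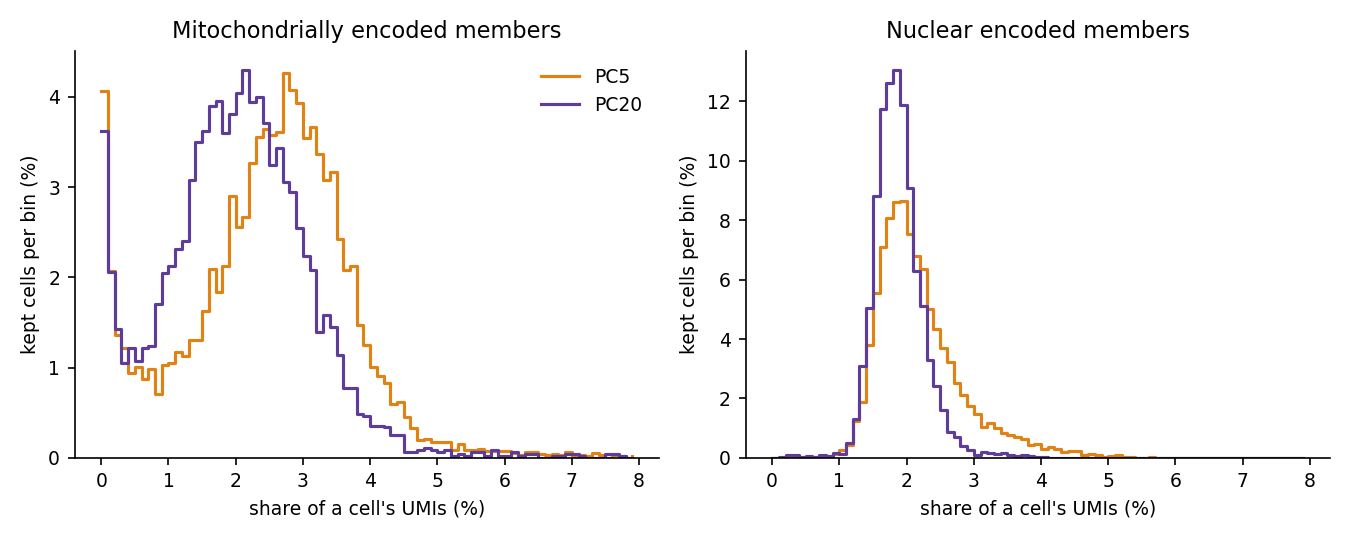
Distribution of the share of a cell's UMIs from mitochondrially encoded members (left) and nuclear encoded members (right), in percent, over kept cells of PC5 (orange) and PC20 (purple), as percent of cells per bin, with the axis ending at 8%. A peak near 0 in the left panel holds the cells under 0.5%, 9.64% of PC5 and 9.39% of PC20 cells.

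Cells with almost no mitochondrial RNA had more nuclear encoded subunit RNA. Under 0.5%, a limit chosen after the distribution was seen and, like the 20% limit, set on members, lay 959 PC5 cells and 446 PC20 cells, with a median of 18128 and 30190 UMIs, against 21979 and 33747 in the other kept cells. In them 67 of the 79 nuclear members were higher than in the other cells of the same library, in PC5 and in PC20 alike, with median log2 differences of 0.41 and 0.19. Among all genes that passed, 24.9% and 25.4% were higher there, with medians of -0.29 and -0.23. Of 90 ribosomal protein genes 52 (57.8%) were higher there in PC5 and 76 (84.4%) in PC20, with medians of 0.07 and 0.23. For the nuclear members the share was 84.8% in both libraries, so in PC20 the difference was not particular to them.

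The nuclear members with the largest log2 differences in those PC5 cells were *Ndufa3*, at 453 CPM under 0.5% mitochondrial UMIs and 204 CPM in the other cells (1.15), *Ndufb6*, at 196 and 89.1 CPM (1.14), and *Ndufv3*, at 488 and 231 CPM (1.08). *Ndufs1*, at 14.7 and 21.3 CPM, and *Uqcrc2*, at 31.1 and 33.9 CPM, were not higher. Summed over nuclear members, PC5 cells went from 30637 CPM under 0.5% to 22978 CPM at 1 to 2% and 18181 CPM at 4 to 20% mitochondrial UMIs. PC20 cells went from 21145 to 18216 and 18360 CPM in these ranges. At the highest mitochondrial shares the passages were thus nearly level.

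RNAs that stay in the nucleus went the other way in the same cells. *Malat1*, a nuclear long noncoding RNA read after its values were seen, was at 858 CPM in PC5 cells under 0.5% and 6347 CPM in the other PC5 cells, and at 4475 and 12501 CPM in PC20. *Neat1* was at 22.7 and 139 CPM in PC5 and *Kcnq1ot1* at 5.21 and 96.9 CPM, both picked in the same way. Without these cells the summed nuclear members were at 20503 CPM in PC5 against 18325 CPM in PC20 (log2 ratio 0.16), and the same 24 members were called. The cells that remained still varied, with nuclear members at 26707 CPM in PC5 cells with 0.5 to 1% mitochondrial UMIs. The part of RNA quality or cell integrity in the levels of the members was not tested.

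**Figure D5:**
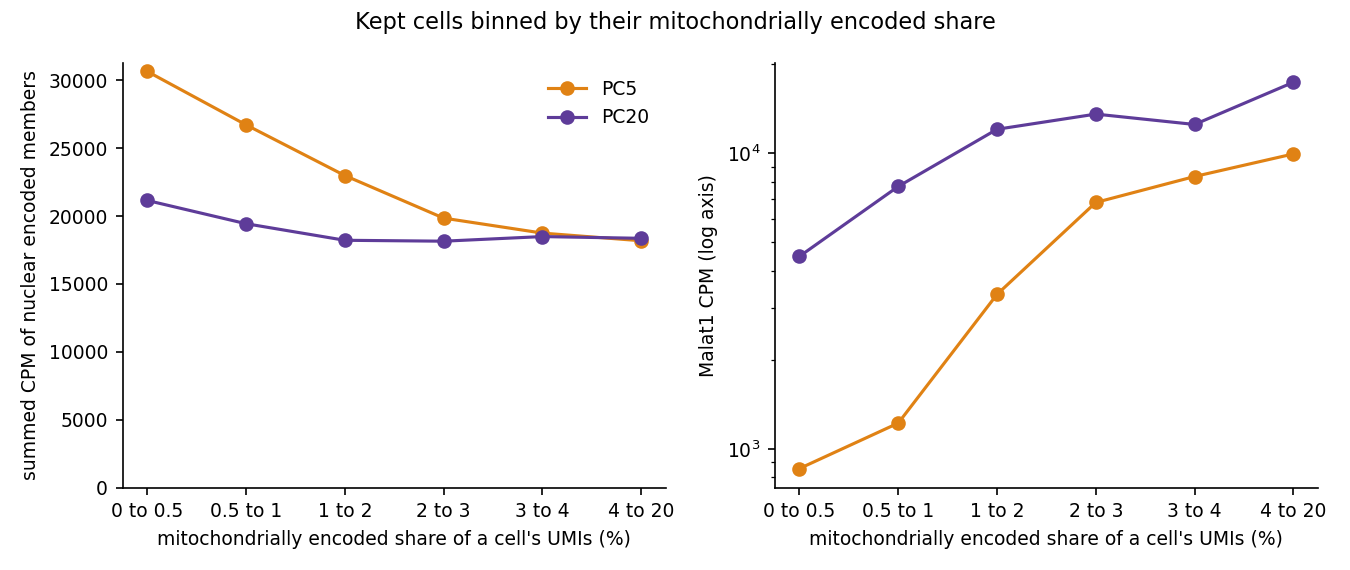
Summed CPM of nuclear encoded members (left) and CPM of *Malat1* on a log axis (right) in kept cells binned by their mitochondrially encoded share of UMIs in percent, for PC5 (orange) and PC20 (purple). The PC5 line goes from 30637 down to 18181 CPM and meets the PC20 line, which ends at 18360 CPM, while *Malat1* is lowest in the first bin of both libraries.

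Proliferation was read from UMIs of *Mki67* or *Top2a*, genes of dividing cells, which 45.0% of PC5 and 72.2% of PC20 cells held. These shares were taken without thinning, so they also depend on depth, which was greater in PC20. Cells with such a UMI had a median of 25567 UMIs in PC5 and 37658 in PC20, against 19195 and 26024 in those without. Summed nuclear members were at 20862 CPM in PC5 cells with such a UMI and 21825 CPM in those without, and at 18464 and 19202 CPM in PC20. In cells without such a UMI the log2 ratio between passages was 0.18 for nuclear and 0.26 for mitochondrial members, so both sums were again higher in PC5.

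Assembly factors, which build the complexes, did not lie in 1 direction. Of 48 that passed, 20 were higher in PC5 and 28 in PC20, with a median log2 ratio of -0.26, while their sum was higher in PC5, at 2213 CPM against 1857 CPM (0.25). Called higher in PC5 were 2 (4.17%, against 17.9% of all genes) and higher in PC20 5 (10.4%, against 17.3%), so both shares were under those of all genes. The 5 were *Ndufaf6* at 5.48 CPM (PC5) and 28.1 CPM (PC20) (log2 ratio -2.36), *Nubpl*, which delivers iron-sulfur clusters to complex I, at 4.81 and 15.9 CPM (-1.72), *Dmac1* (-1.28), *Ecsit* (-1.25) and the complex IV factor *Coa7* (-1.15). The 2 called higher in PC5 were the complex IV factors *Pet100*, at 63.3 and 16.1 CPM (1.97), and *Coa5*, at 86.6 and 23.8 CPM (1.86). Of the 15 complex I factors that passed 12 were higher in PC20, with a median of -0.57. Of the complex IV factors 11 of 20 were higher in PC5, of the complex II factors 3 of 4, of the complex III factors 2 of 5 and of the complex V factors 1 of 4.

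Among 13 genes of electron carriers and of ubiquinone synthesis that passed, 12 were higher in PC20 and 4 were called (30.8%, against 17.3% of all genes): *Coq6* and *Coq7* of ubiquinone synthesis (-1.63 and -1.30), *Etfa* of the electron transfer flavoprotein (-1.44) and *Cyc1*, cytochrome c1 of complex III, which the symbol rule leaves out, at 54.0 and 114 CPM (-1.08). The exception was *Cycs*, cytochrome c itself, at 159 and 148 CPM (0.11). Of 13 genes for mitochondrial DNA maintenance and transcription 9 were higher in PC20 and 2 were called, a share (15.4%) near that of all genes. These were *Mterf3*, a repressor of mitochondrial transcription, at 7.36 and 24.4 CPM (-1.73), and the nuclease *Mgme1* (-1.13). Of 8 biogenesis regulators 6 were higher in PC20 and 2 were called (25%, against 17.3% of all genes), *Sirt3* (-1.16) and *Sirt1* (-1.10). With so few genes this share says little about the list. Of 15 genes of mitochondrial structure and transport 6 were higher in PC5 and 9 in PC20. Of these 1 was called (6.67%, against 17.3% of all genes): *Vdac3*, a channel of the outer membrane, at 123 and 359 CPM (-1.55).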

How the data were processed

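The authors mapped reads of the 10x 3′ libraries to mm10 with CellRanger (5.0.1 in the study's methods) and deposited raw counts, the UMIs per gene and cell barcode, without normalization. Kept cells had more than 1000 genes and under 20% mitochondrial UMIs, as in the study's methods. They held 223054273 UMIs in PC5 and 191122251 in PC20. UMIs were summed per library, scaled to CPM, and compared as log2 ratios with no pseudocount. Exact 95% intervals, conditional binomial for ratios and Clopper-Pearson for shares, cover counting error only. No test was made, since each passage had 1 library and cells are not replicates. For shares of cells with a UMI, cells were thinned to the 10th percentile of pooled depth, rounded down to a multiple of 500, which left 8847 PC5 and 4474 PC20 cells. The shares for *Mki67* or *Top2a* UMIs were taken without thinning. Coordinates and lengths came from GENCODE M21 on GRCm38, and promoters from RefSeq. *Atp5o* IDs, overlapping genes and genes with processed pseudogenes can share reads, so their counts are uncertain.

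The members and all other gene lists were chosen with earlier results of these data known. Named were the mitochondrial members, isoform families, members and list genes past 2-fold with a mean of at least 5 CPM, core subunits, and the extreme and most abundant nuclear members of each complex. Members given beside these to complete a group, *Cycs*, *Vegfa*, *Ppara*, *Ppargc1a*, *Ppargc1b*, *Malat1*, *Neat1*, *Kcnq1ot1* and the genes named from cells with few mitochondrial UMIs were chosen after their values were seen. The values of 1 member are not reported here, though sums and counts include it. The computation was tested on simulated data. Python 3.11.15, numpy 2.4.6, scipy 1.17.1, pandas 2.3.3 and matplotlib 3.10.9 were used.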

Additional observations from a re-analysis of the deposited data

How the results depend on the processing

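With 1 library per passage, the spread between cultures is unknown and the counting intervals do not cover it, and passage cannot be told apart from isolation. No paired analysis was possible because each passage has 1 library. All alternatives kept the direction of both sums, although most moved them past their counting intervals. The log2 ratios of the mitochondrial and nuclear sums were 0.27 and 0.19 under a stricter cell filter, 0.27 and 0.20 with all barcodes, 0.28 and 0.20 without the 5% of cells with most UMIs, 0.26 and 0.18 in cells without *Mki67* or *Top2a* UMIs, 0.30 and 0.18 in thinned cells, 0.29 and 0.22 with mitochondrial and ribosomal protein genes left out of the library size, 0.29 and 0.22 as means over cells, and 0.24 and 0.16 in cells with at least 0.5% mitochondrial UMIs, the last chosen after seeing the data. Single members moved too. *Cox6b2* moved by 0.37 on the log2 scale in thinned cells and as a mean over cells, and by 0.23 without the largest cells. Each of these moves went past its counting interval. *Cox6a2* moved by 0.57 in cells without *Mki67* or *Top2a* UMIs, which stayed within its wider interval. Called members numbered 23 to 26, against 24. *Ndufa6* was not called with the other library size or as a mean over cells, *Ndufv2* and *Ndufs3* were called in addition in thinned cells, without the largest cells and in cells without *Mki67* or *Top2a* UMIs, *Ndufv2* also as a mean over cells, and *Cox4i2* with no filter on low values, and only *Atp5h* and *Ndufb7*, both near even, changed sign under some alternatives.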

Other observations

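In PC5 thinned to equal depth, cells with a *Cox4i2* UMI more often held an *Ndufa4l2* UMI: 82 of 185 such cells did (44.3%, Clopper-Pearson interval 37.0 to 51.8), against 22.1% (21.2 to 23.0) of 8662 cells without, with median depths of 22524 and 23093 UMIs before thinning. A *Rgs5* UMI, a marker of brain PCs, was seen in 2.36% (1.74 to 3.12) of 1995 cells with an *Ndufa4l2* UMI and 1.33% (1.07 to 1.63) of 6852 cells without. *Pdgfrb* was seen in 39.4% (37.2 to 41.6) and 34.2% (33.1 to 35.3) of these cells, and the contractile gene *Acta2* in 27.6% (25.6 to 29.6) and 28.3% (27.2 to 29.4). In PC20, *Cox6a2*, the muscle isoform, did not go with *Acta2*, which was seen in 16.1% (13.7 to 18.8) of 843 cells with a *Cox6a2* UMI and 19.6% (18.4 to 21.0) of 3631 cells without. The intervals cover counting error within these libraries only. *Ppargc1a* and *Ppargc1b*, coactivators known to drive mitochondrial biogenesis, were under the mean of 5 CPM, at 0.108 and 0.583 CPM in PC5 and 1.40 and 4.02 CPM in PC20. *Ppara*, the third biogenesis regulator under that mean, lay the other way, with 0.919 CPM at passage 5 and 0.0733 CPM at passage 20.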
